A study of Mus musculus with 6 samples.

Results

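Oligodendrocyte lineage and myelin genes were examined in mouse primary neuron cultures in which HDAC2 or Sp3 had been knocked down. They were taken by symbol from a list of 32 names, of which 31 have a row among the 23235 genes of the authors' deposited tables. Myrf has no row, and the tables list that gene under its older symbol Gm98, which is also on the list. By role and stage the 31 genes comprised 6 transcription factors of the lineage, 2 precursor genes, 6 genes of committed or immature cells, and 17 genes of myelin and mature oligodendrocytes. The rule takes the rows by symbol and uses no measured value, but the list itself was drawn up with earlier results of these data known.

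Oligodendrocytes are the cells of the central nervous system that wrap axons in myelin. They arise from dividing precursors that carry the receptor PDGFRA and the proteoglycan NG2, pass through a committed, non-dividing stage, and then switch on the proteins and lipids of the myelin sheath. OLIG2 and SOX10 act throughout the lineage, whereas MYRF is switched on as precursors differentiate. Class I histone deacetylases, the family of HDAC2, are known to be needed for oligodendrocyte differentiation in mice. Sp3 is a zinc finger protein that binds GC boxes in promoters.

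The data are 6 RNA sequencing libraries of mixed cortical and hippocampal cultures, 2 each for HDAC2 knockdown, Sp3 knockdown and control. The neurons were taken from mouse embryos at day 15 and kept for 17 days in Neurobasal medium with B27. All groups had received 1 uM AraC (cytosine arabinoside, which kills dividing cells) on day 5 in vitro and lentivirus on day 12. The virus carried short hairpin RNA against HDAC2, against Sp3, or, for the group labelled control, a sequence that the labels do not describe. The labels give neither mouse strain nor hairpin sequences, and nothing states that the libraries of a group were separate cultures, so p-values may measure technical spread only.

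Each level below is the authors' value in FPKM, a fragment count divided by transcript length and by library depth, with 1 value per group. The tables used here hold no value for a single library, so the levels carry no SD over the 2 libraries of a group. Errors are standard errors implied by the deposited Cuffdiff test statistic, and an exact test over libraries is not possible. An adjusted p comes from that statistic after centring, over all tested genes. Rises and falls are given as centred log2 fold changes ± standard error. The control values are identical in both tables, so the comparisons with control share those libraries. The median log2 fold change over tested genes that reached 1 FPKM in either group was 0.32 in HDAC2 knockdown and -0.13 in Sp3 knockdown, and centred fold changes are given relative to these medians. Each target was low in its own knockdown. Hdac2 stood at 12.3 FPKM in HDAC2 knockdown and 49.4 FPKM in control, and Sp3 stood at 5.82 FPKM in Sp3 knockdown and 15.5 FPKM in control. In the other knockdown, Sp3 was at 26.7 FPKM in HDAC2 knockdown (0.47 ± 0.089 after centring, adjusted p of 3.48e-06), and Hdac2 was at 38.8 FPKM in Sp3 knockdown (-0.22 ± 0.11, adjusted p of 0.101). In these bulk samples, fewer cells of a type and less RNA per cell cannot be told apart.

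Promoter letters are shown first for 5 genes that differed between the knockdowns, because the binding element of Sp3 can be looked for in them. Of 12 members that differed, 7 had a single start and a window that could be shown, and these are the 5 with the smallest adjusted p. Each line gives the 250 bases upstream of the annotated start, 5′ to 3′ on the strand of the gene, from RefSeq on GRCm38.p6. Capitals mark the GC box, GGGCGG or its reverse complement CCGCCC.
Ugt8a: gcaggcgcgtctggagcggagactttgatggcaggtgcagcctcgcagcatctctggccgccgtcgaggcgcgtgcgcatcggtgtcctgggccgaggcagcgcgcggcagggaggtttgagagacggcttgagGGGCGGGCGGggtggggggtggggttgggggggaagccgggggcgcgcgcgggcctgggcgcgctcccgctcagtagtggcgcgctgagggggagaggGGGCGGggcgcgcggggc
Pdgfra: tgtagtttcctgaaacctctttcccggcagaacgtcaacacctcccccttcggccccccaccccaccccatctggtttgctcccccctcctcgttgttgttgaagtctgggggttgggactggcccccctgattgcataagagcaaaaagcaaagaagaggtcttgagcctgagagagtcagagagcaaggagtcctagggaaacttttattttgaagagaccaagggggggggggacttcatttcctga
Itpr2: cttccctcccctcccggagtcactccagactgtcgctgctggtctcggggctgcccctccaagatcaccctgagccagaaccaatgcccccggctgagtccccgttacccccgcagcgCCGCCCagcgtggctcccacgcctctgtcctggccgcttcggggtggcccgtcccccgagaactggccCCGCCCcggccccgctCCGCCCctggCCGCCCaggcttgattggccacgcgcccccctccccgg
Sirt2: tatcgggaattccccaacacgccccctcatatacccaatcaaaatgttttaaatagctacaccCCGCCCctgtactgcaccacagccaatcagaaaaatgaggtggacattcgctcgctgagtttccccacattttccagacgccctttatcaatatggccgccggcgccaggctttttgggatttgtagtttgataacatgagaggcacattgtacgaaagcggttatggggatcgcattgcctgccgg
Cnp: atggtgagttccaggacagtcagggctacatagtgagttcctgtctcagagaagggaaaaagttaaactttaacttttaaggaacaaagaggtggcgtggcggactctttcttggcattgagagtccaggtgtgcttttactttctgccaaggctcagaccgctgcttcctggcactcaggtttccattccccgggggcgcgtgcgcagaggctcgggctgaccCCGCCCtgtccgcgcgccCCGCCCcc
Ugt8a lies on the minus strand with its window at chr3:125938653-125938902, and Pdgfra on the plus strand with its window at chr5:75152001-75152250. Itpr2 lies on the minus strand, with its window at chr6:146502224-146502473. Sirt2 and Cnp lie on the plus strand, with windows at chr7:28766502-28766751 and chr11:100574689-100574938.

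The windows of Ugt8a, Itpr2, Sirt2 and Cnp held 3, 4, 1 and 2 GC boxes, counting overlapping matches, and that of Pdgfra held 0. GC made up 76.8% of the Ugt8a window, 74.4% of that of Itpr2, 57.2% of that of Cnp, 54.4% of that of Pdgfra and 50% of that of Sirt2. The median was 57.2% over member windows and 52.4% over all upstream windows. Windows were found for 22 member genes, and 9 of these (40.9%) had a GC box, beside 35.4% of 27025 genes. The letters ACAAAG, the core read by Sox proteins, or their reverse complement stood in 4 of the 22 (18.2%), beside 18.6% of genes. The E box letters CAGCTG stood in 2 (9.09%), beside 14.7% of genes. A match here describes letters and not a bound site, and binding was not measured in the data used here.

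Of genes tested in both comparisons, 3 of 3 of committed or immature cells and 6 of 8 of myelin were higher in HDAC2 knockdown at q under 0.05. After centring 2 and 6 were. The shares over genes were 23.8% of those tested in both, and 10.2% of all tested genes after centring. Sox10 and Pdgfra were higher too, whereas Olig1, Mog, Gjc3 and others did not pass. Mbp, the second most abundant protein of myelin, was at 27.8 FPKM in HDAC2 knockdown and 8.17 FPKM in control. Gpr17, a receptor of committed precursors, was at 29.1 FPKM in HDAC2 knockdown and 0.649 FPKM in control, but was tested only through its level in HDAC2 knockdown. In Sp3 knockdown 3 of 4 tested factors and both precursor genes were lower than control at q under 0.05, beside 26.1% of all tested genes. Pdgfra was at 20.9 FPKM in Sp3 knockdown and 43.8 FPKM in control. Sox10 differed from control in both, in opposite directions, and was at 12.8 FPKM in HDAC2 knockdown, 1.52 FPKM in Sp3 knockdown and 4.21 FPKM in control.

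**Figure D1:**
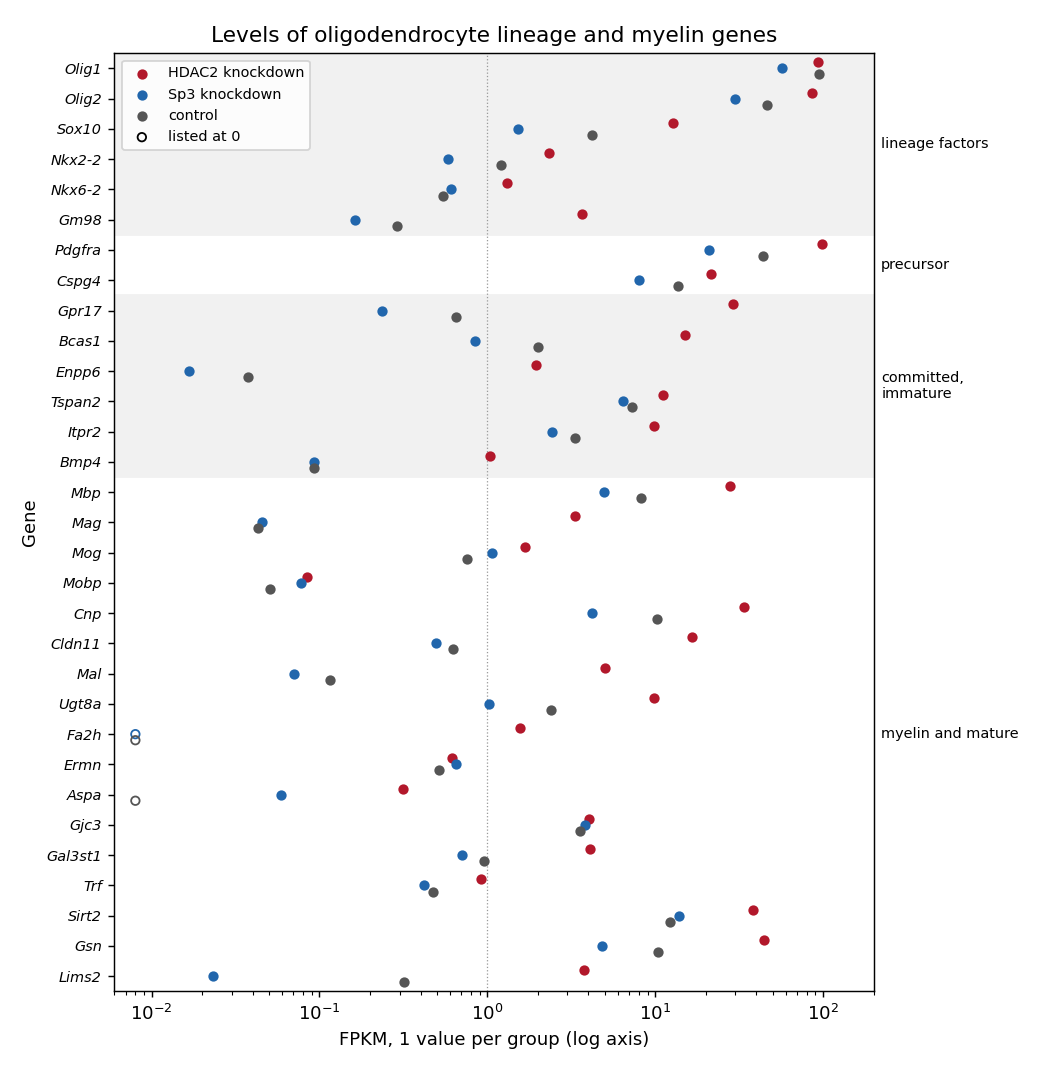
Levels of the 31 genes in FPKM on a log axis, 1 authors' value per group, with HDAC2 knockdown in red, Sp3 knockdown in blue and control in grey, and open points for genes listed at 0. The red points of Gpr17, Mag, Cldn11 and Mal lie well to the right of their blue and grey points, while those of Olig1, Gjc3 and Ermn lie close together.

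The summed level of the 31 genes was 583.8 FPKM in HDAC2 knockdown, 165.2 FPKM in Sp3 knockdown and 269.2 FPKM in control. Of these genes, 27 reached 1 FPKM in HDAC2 knockdown, 14 did in Sp3 knockdown and 15 did in control. The sums and counts of this paragraph are not centred and have no share over all genes beside them. They include genes tested only through their level in HDAC2 knockdown. By stage, the immature genes summed to 68.0 FPKM in HDAC2 knockdown, 10.04 FPKM in Sp3 knockdown and 13.4 FPKM in control. The myelin genes summed to 196.5 FPKM in HDAC2 knockdown, 36.2 FPKM in Sp3 knockdown and 50.8 FPKM in control. The factors were less far apart, with 198.9 FPKM in HDAC2 knockdown, 90.0 FPKM in Sp3 knockdown and 147.5 FPKM in control. Precursor genes summed to 120.3 FPKM in HDAC2 knockdown, 28.9 FPKM in Sp3 knockdown and 57.5 FPKM in control. Olig1, Olig2 and Pdgfra were the 3 members of highest level in each group, so the sums of factors and precursor genes rest mainly on them.

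The authors' test could be applied to 25 members in the HDAC2 comparison and to 17 in the Sp3 comparison. The same 17 were tested in both. Another 8 (Gpr17, Enpp6, Mag, Cldn11, Mal, Fa2h, Gm98 and Lims2) were tested in the HDAC2 comparison alone. These 8 were under 1 FPKM in control and entered the test through their level in HDAC2 knockdown, so their calls are no support for a count. The remaining 6, Mobp, Nkx6-2, Ermn, Aspa, Trf and Bmp4, were tested in neither.

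Of the 17 genes tested in both comparisons, 12 were higher and 0 lower in HDAC2 knockdown than in control at q under 0.05 by the authors' deposited table, where 24.6% of all 13569 tested genes were higher and 3.60% lower. Over genes tested in both tables these shares were 23.8% and 3.65%. After centring, which takes away the shift of the median gene, 10 of the 17 were higher and 0 lower, beside 10.2% and 7.59% of all genes. Their median centred log2 fold change was 1.24, and that of all tested genes was -0.0044. With the 8 genes of the HDAC2 table alone the counts were 20 of 25 higher by the authors' deposited table and 17 after centring. Over all 31 genes, tested or not and without centring, 30 were listed higher and 1 lower, with a median difference of 1.73 in log2(FPKM + 0.1). Of all 23235 genes, 13694 were listed higher and 5637 lower, with a median difference of 0.16.

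Of the 17 genes, 0 were higher and 11 lower in Sp3 knockdown than in control at q under 0.05 by the authors' deposited table, where 13.2% of all 13619 tested genes were higher and 26.1% lower. Over genes tested in both tables these shares were 13.1% and 26.2%. After centring 1 (Sirt2) was higher and 11 were lower, beside 20.2% and 17.6% of all genes. The median centred log2 fold change of the 17 was -0.60, and that of all tested genes was -0.0016. Over all 31 genes without centring, 8 were listed higher and 22 lower, with a median difference of -0.39 in log2(FPKM + 0.1). Of all 23235 genes, 7769 were listed higher and 11740 lower, with a median difference of -0.0056. These calls treat the deposited statistic as a normal deviate, as the authors' p-values do. With a t distribution on 2 degrees of freedom, 0 members and 0 genes in all were called in either comparison.

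**Figure D2:**
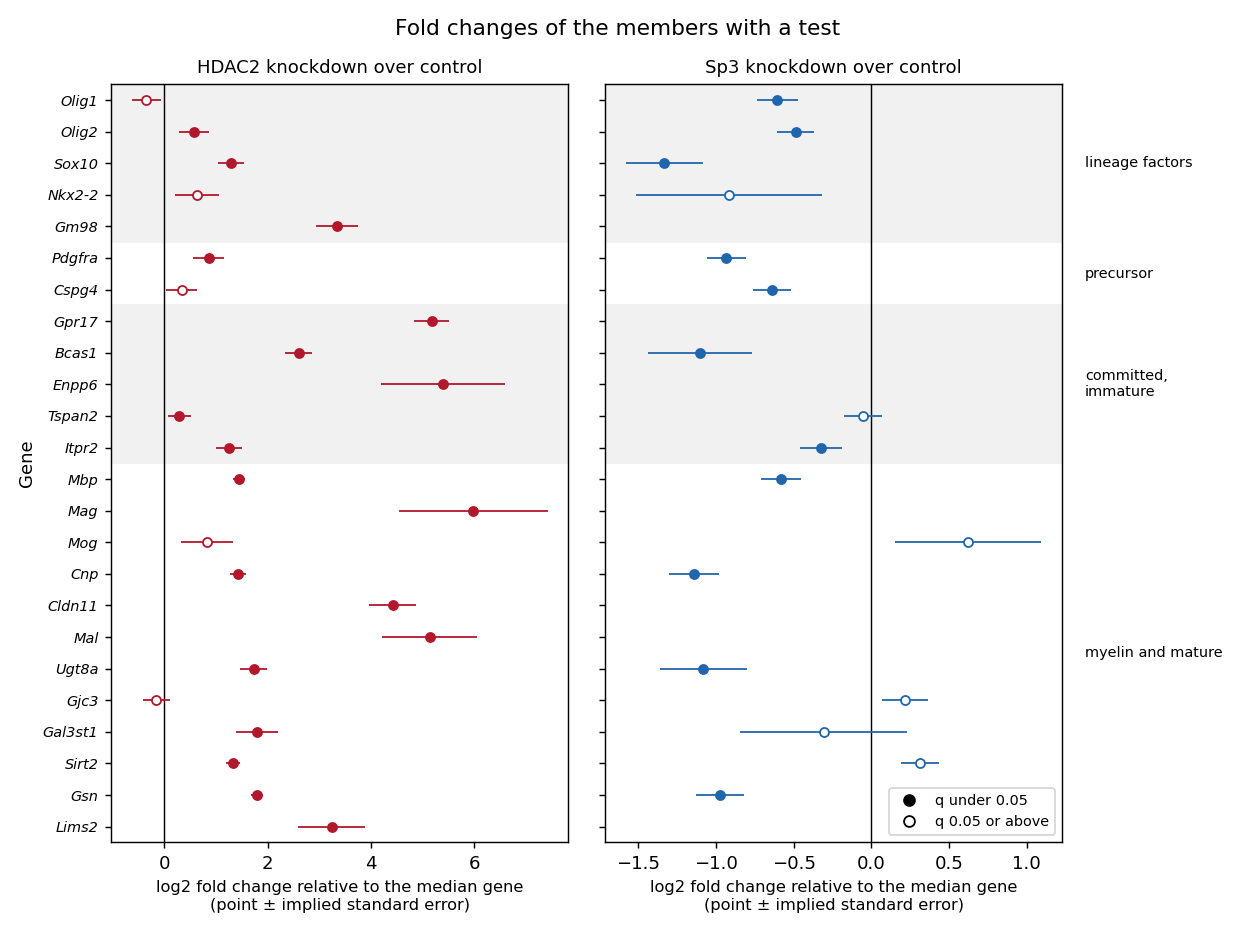
Centred log2 fold changes against control in HDAC2 knockdown (left) and Sp3 knockdown (right), with bars of 1 implied standard error and points filled where the deposited q is under 0.05. Genes without a point had no test with a finite fold there, and most HDAC2 points lie right of 0 while most Sp3 points lie left of it, on axes of different range.

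Among the lineage factors, Olig1, a basic helix-loop-helix protein, was at 93.1 FPKM in HDAC2 knockdown, 57.1 FPKM in Sp3 knockdown and 95.1 FPKM in control. Its centred log2 fold change was -0.35 ± 0.28 in HDAC2 knockdown (adjusted p of 0.465), and it fell by 0.60 ± 0.13 in Sp3 knockdown (adjusted p of 3.38e-05). Olig2, its close relative and a factor that specifies the lineage, was at 85.7 FPKM in HDAC2 knockdown, 30.1 FPKM in Sp3 knockdown and 46.1 FPKM in control. Olig2 was called higher in HDAC2 knockdown by the authors' deposited table (q = 0.0115) and lost that call on centring (0.58 ± 0.30, adjusted p of 0.18). In Sp3 knockdown Olig2 fell by 0.49 ± 0.12 (adjusted p of 2.55e-04). The genes are neighbours on chromosome 16, with Olig2 at 91225794 to 91228922 and Olig1 at 91270013 to 91272184 in mm9. Although only 41090 bases separate their loci, Olig1 was 1.09 times the level of Olig2 in HDAC2 knockdown, 1.90 times in Sp3 knockdown and 2.06 times in control, on the FPKM scale.

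Sox10 (chromosome 15, 78985342 to 78994920), the factor that switches on many myelin genes, passed in both comparisons. It rose by 1.29 ± 0.25 in HDAC2 knockdown (adjusted p of 8.16e-06) and fell by 1.33 ± 0.25 in Sp3 knockdown (adjusted p of 6.70e-07). Nkx2-2, a homeodomain factor of precursor differentiation, was at 2.32 FPKM in HDAC2 knockdown, 0.579 FPKM in Sp3 knockdown and 1.20 FPKM in control. Its centred values were 0.63 ± 0.43 in HDAC2 knockdown and -0.92 ± 0.60 in Sp3 knockdown, and neither passed (adjusted p of 0.351 and 0.231). The tables give Nkx2-2 the same interval as Nkx2-2as. Nkx6-2, a homeodomain factor of myelinating cells, was not tested and stood at 1.31 FPKM in HDAC2 knockdown, 0.606 FPKM in Sp3 knockdown and 0.541 FPKM in control. Gm98 (Myrf), the factor that drives myelin gene transcription, was at 3.64 FPKM in HDAC2 knockdown, 0.164 FPKM in Sp3 knockdown and 0.288 FPKM in control. It rose by 3.34 ± 0.40 in HDAC2 knockdown (adjusted p of 1.17e-14). Relative to Sox10 in the same libraries, Gm98 was 0.283 in HDAC2 knockdown, 0.108 in Sp3 knockdown and 0.0685 in control.

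Of the precursor genes, Pdgfra passed in both comparisons and Cspg4 in Sp3 knockdown. Pdgfra (chromosome 5, 75548315 to 75594229 in mm9), the receptor for the platelet-derived mitogen of precursors, was at 98.8 FPKM in HDAC2 knockdown, 20.9 FPKM in Sp3 knockdown and 43.8 FPKM in control. It rose by 0.86 ± 0.30 in HDAC2 knockdown (adjusted p of 0.029) and fell by 0.93 ± 0.12 in Sp3 knockdown (adjusted p of 1.53e-12). Cspg4, which encodes the NG2 proteoglycan and is also made by pericytes, was at 21.5 FPKM in HDAC2 knockdown, 8.05 FPKM in Sp3 knockdown and 13.7 FPKM in control. Its value was 0.33 ± 0.30 in HDAC2 knockdown, which did not pass (adjusted p of 0.536). In Sp3 knockdown Cspg4 fell by 0.64 ± 0.12 (adjusted p of 1.61e-06).

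All 5 tested genes of committed and immature cells were higher in HDAC2 knockdown by the authors' deposited table, and 4 of them after centring, but Gpr17 and Enpp6 were tested through their level there. Of the 3 tested in both comparisons, 3 were higher in HDAC2 knockdown by the authors' deposited table, beside 23.8% of genes tested in both. In turn 2 of the 3 tested in Sp3 knockdown were lower, beside 26.2% of genes tested in both. Gpr17 rose by 5.17 ± 0.33 in HDAC2 knockdown (adjusted p of 2.17e-50), and it stood at 0.236 FPKM in Sp3 knockdown, where it was not tested. Enpp6, a phosphodiesterase of newly formed oligodendrocytes, was at 1.94 FPKM in HDAC2 knockdown, 0.0168 FPKM in Sp3 knockdown and 0.0373 FPKM in control. It rose by 5.39 in HDAC2 knockdown, with a wide standard error of 1.20 (adjusted p of 1.23e-04). Bcas1 (chromosome 2, 170172490 to 170253345), a protein of early myelinating cells, was at 15.01 FPKM in HDAC2 knockdown, 0.846 FPKM in Sp3 knockdown and 1.99 FPKM in control. It rose by 2.60 ± 0.26 in HDAC2 knockdown (adjusted p of 2.81e-21) and fell by 1.10 ± 0.33 in Sp3 knockdown (adjusted p of 0.00373).

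Itpr2, a calcium release channel of the endoplasmic reticulum that marks cells early in differentiation, was at 9.82 FPKM in HDAC2 knockdown, 2.42 FPKM in Sp3 knockdown and 3.33 FPKM in control. It rose by 1.24 ± 0.25 in HDAC2 knockdown (adjusted p of 1.64e-05) and fell by 0.33 ± 0.13 in Sp3 knockdown (adjusted p of 0.0421). Tspan2, a tetraspanin of the lineage, did not pass in either comparison after centring. It was at 11.1 FPKM in HDAC2 knockdown, 6.43 FPKM in Sp3 knockdown and 7.32 FPKM in control. Its call in HDAC2 knockdown by the authors' deposited table (q = 0.0257) was lost on centring (0.29 ± 0.22, adjusted p of 0.445). Its value in Sp3 knockdown was -0.05 ± 0.12 (adjusted p of 0.775). Bmp4, a secreted ligand made by committed precursors, was not tested and stood at 1.03 FPKM in HDAC2 knockdown, 0.0923 FPKM in Sp3 knockdown and 0.0927 FPKM in control.

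Genes for the main structural proteins of myelin were higher in HDAC2 knockdown. Mbp was at 27.8 FPKM in HDAC2 knockdown, 4.97 FPKM in Sp3 knockdown and 8.17 FPKM in control. It rose by 1.45 ± 0.12 in HDAC2 knockdown (adjusted p of 2.26e-29) and fell by 0.58 ± 0.13 in Sp3 knockdown (adjusted p of 3.60e-05). Cnp (chromosome 11, 100436252 to 100443053), an enzyme of the non-compact myelin channels, was at 34.0 FPKM in HDAC2 knockdown, 4.22 FPKM in Sp3 knockdown and 10.2 FPKM in control. It rose by 1.42 ± 0.15 in HDAC2 knockdown (adjusted p of 2.34e-18) and fell by 1.14 ± 0.16 in Sp3 knockdown (adjusted p of 2.79e-11).

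Cldn11, which forms the tight junctions of myelin, was at 16.6 FPKM in HDAC2 knockdown, 0.497 FPKM in Sp3 knockdown and 0.625 FPKM in control. Mal, a raft protein of myelin membranes, was at 5.02 FPKM in HDAC2 knockdown, 0.0702 FPKM in Sp3 knockdown and 0.115 FPKM in control. Mag, an adhesion molecule on the inner face of the sheath, was at 3.35 FPKM in HDAC2 knockdown, 0.0457 FPKM in Sp3 knockdown and 0.0428 FPKM in control. These 3 genes, nearly silent in control, rose in HDAC2 knockdown by 4.42 ± 0.46, 5.13 ± 0.92 and 5.97 ± 1.44 (adjusted p of 7.27e-20, 6.72e-07 and 4.78e-04). They were not tested in Sp3 knockdown.

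Genes for late proteins of the sheath were low in all groups. Mog, a surface protein of the outermost myelin layer, was at 1.67 FPKM in HDAC2 knockdown, 1.06 FPKM in Sp3 knockdown and 0.755 FPKM in control. Its centred values were 0.83 ± 0.50 in HDAC2 knockdown and 0.62 ± 0.47 in Sp3 knockdown (adjusted p of 0.285 and 0.309). Mobp, a cytoplasmic myelin protein, was under 0.1 FPKM in all groups, at 0.0843 FPKM in HDAC2 knockdown, 0.0772 FPKM in Sp3 knockdown and 0.0505 FPKM in control. Ermn, a cytoskeletal protein of late myelination, was at 0.616 FPKM in HDAC2 knockdown, 0.653 FPKM in Sp3 knockdown and 0.515 FPKM in control. Neither Mobp nor Ermn was tested.

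Genes for myelin lipids were also higher in HDAC2 knockdown. Ugt8a makes galactosylceramide, Gal3st1 adds a sulfate to it, and Fa2h supplies its hydroxylated fatty acid. Ugt8a was at 9.85 FPKM in HDAC2 knockdown, 1.03 FPKM in Sp3 knockdown and 2.39 FPKM in control. It rose by 1.73 ± 0.27 in HDAC2 knockdown (adjusted p of 4.29e-09) and fell by 1.08 ± 0.28 in Sp3 knockdown (adjusted p of 5.63e-04). Gal3st1 was at 4.10 FPKM in HDAC2 knockdown, 0.704 FPKM in Sp3 knockdown and 0.954 FPKM in control, and it rose by 1.79 ± 0.40 in HDAC2 knockdown (adjusted p of 1.58e-04). In Sp3 knockdown its value was -0.31 ± 0.54, which did not pass (adjusted p of 0.701). Fa2h was at 1.56 FPKM in HDAC2 knockdown and was listed at 0 in Sp3 knockdown and in control, and it was called higher in HDAC2 knockdown by the authors' deposited table (q = 3.86e-05). Aspa, which releases acetate for lipid synthesis, was at 0.316 FPKM in HDAC2 knockdown and 0.059 FPKM in Sp3 knockdown, was listed at 0 in control, and was not tested.

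The other genes of mature cells were mixed. Gsn, an actin-severing protein that other cell types also make, was at 44.7 FPKM in HDAC2 knockdown, 4.82 FPKM in Sp3 knockdown and 10.4 FPKM in control. It rose by 1.79 ± 0.11 in HDAC2 knockdown (adjusted p of 1.08e-53) and fell by 0.98 ± 0.15 in Sp3 knockdown (adjusted p of 4.03e-09). Sirt2, a cytoplasmic deacetylase abundant in myelin, was at 38.1 FPKM in HDAC2 knockdown, 13.8 FPKM in Sp3 knockdown and 12.2 FPKM in control. It rose by 1.33 ± 0.13 in HDAC2 knockdown (adjusted p of 6.18e-23). Sirt2 was the 1 member higher in Sp3 knockdown after centring (0.31 ± 0.12, adjusted p of 0.0316), a call absent from the authors' deposited table (q = 0.259).

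Gjc3, a connexin gene, was at 4.02 FPKM in HDAC2 knockdown, 3.80 FPKM in Sp3 knockdown and 3.58 FPKM in control. Its log2 fold change in HDAC2 knockdown was 0.17 by the authors' deposited table and -0.15 ± 0.26 after centring (adjusted p of 0.781), and in Sp3 knockdown it was 0.22 ± 0.15 after centring (adjusted p of 0.263). Trf, the iron carrier transferrin, was not tested and stood at 0.922 FPKM in HDAC2 knockdown, 0.416 FPKM in Sp3 knockdown and 0.477 FPKM in control. Lims2, an adhesion adaptor, was at 3.75 FPKM in HDAC2 knockdown, 0.0232 FPKM in Sp3 knockdown and 0.318 FPKM in control. It rose by 3.24 ± 0.65 in HDAC2 knockdown (adjusted p of 1.24e-05). The tables give Lims2 and Gpr17 the same interval, chromosome 18 from 32091160 to 32118273 in mm9, so reads between them may have been shared. In all, 8 of the 31 genes overlap another gene of the tables, and no strand setting for the counting is given in the sources used here.

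Within a group, ratios of FPKM set the stages against each other without a scale between libraries. Gpr17 was 0.295 times the level of Pdgfra in HDAC2 knockdown, 0.0113 times in Sp3 knockdown and 0.0148 times in control. Cldn11 was 0.194 times the level of Olig2 in HDAC2 knockdown, 0.0165 times in Sp3 knockdown and 0.0135 times in control. Both ratios were more than 10 times as high in HDAC2 knockdown as in control, and in Sp3 knockdown they lay near control. Gpr17 and Cldn11 entered the test through their level in HDAC2 knockdown, so these 2 ratios are no support. Ratios between genes tested in both comparisons moved less. Against Olig2, in HDAC2 knockdown, Sp3 knockdown and control, Cnp was 0.40, 0.14 and 0.22 times, Sox10 0.15, 0.051 and 0.091 times, and Pdgfra 1.15, 0.70 and 0.95 times. Mbp was 0.324 times the level of Olig2 in HDAC2 knockdown, 0.165 times in Sp3 knockdown and 0.177 times in control. Against Pdgfra, Mbp was 0.281 times in HDAC2 knockdown, 0.238 times in Sp3 knockdown and 0.187 times in control, a narrower spread. These ratios have no error, since each rests on 1 value per group.

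The direct difference between the knockdowns was tested as the centred log2 fold change in HDAC2 knockdown minus that in Sp3 knockdown, with the error of the shared control counted in both. Of the 17 genes, 12 were higher and 0 lower in HDAC2 knockdown than in Sp3 knockdown at an adjusted p under 0.05, beside 7.86% and 6.87% of 13277 genes. The median difference was 1.57 for the 17 genes and -0.012 for all genes. Bcas1 had the largest of the 17, 3.70 ± 0.42 (adjusted p of 6.50e-16), followed by Ugt8a at 2.81 ± 0.39 (adjusted p of 5.23e-11). Gsn differed by 2.77 ± 0.19 (adjusted p of 1.24e-43), Cnp by 2.56 ± 0.22 (adjusted p of 8.45e-28) and Mbp by 2.03 ± 0.18 (adjusted p of 2.01e-27).

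By role, 2 of 4 tested factors, 2 of 2 precursor genes, 2 of 3 immature genes and 6 of 8 myelin genes were higher in HDAC2 knockdown than in Sp3 knockdown. Among factors, Sox10 differed by 2.63 ± 0.35 (adjusted p of 2.11e-11) and Olig2 by 1.06 ± 0.32 (adjusted p of 0.00973). The precursor genes Pdgfra and Cspg4 differed by 1.79 ± 0.33 and 0.97 ± 0.33 (adjusted p of 1.94e-06 and 0.0258). The remaining 5 genes, Olig1, Nkx2-2, Tspan2, Mog and Gjc3, did not pass. The 95% interval of the difference was -0.35 to 0.86 for Olig1, 0.11 to 2.99 for Nkx2-2, -0.16 to 0.84 for Tspan2, -1.15 to 1.56 for Mog and -0.96 to 0.22 for Gjc3. The intervals of Nkx2-2 and Mog were the widest of the 5. With a t distribution on 2 degrees of freedom, 0 genes were called in this comparison.

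**Figure D3:**
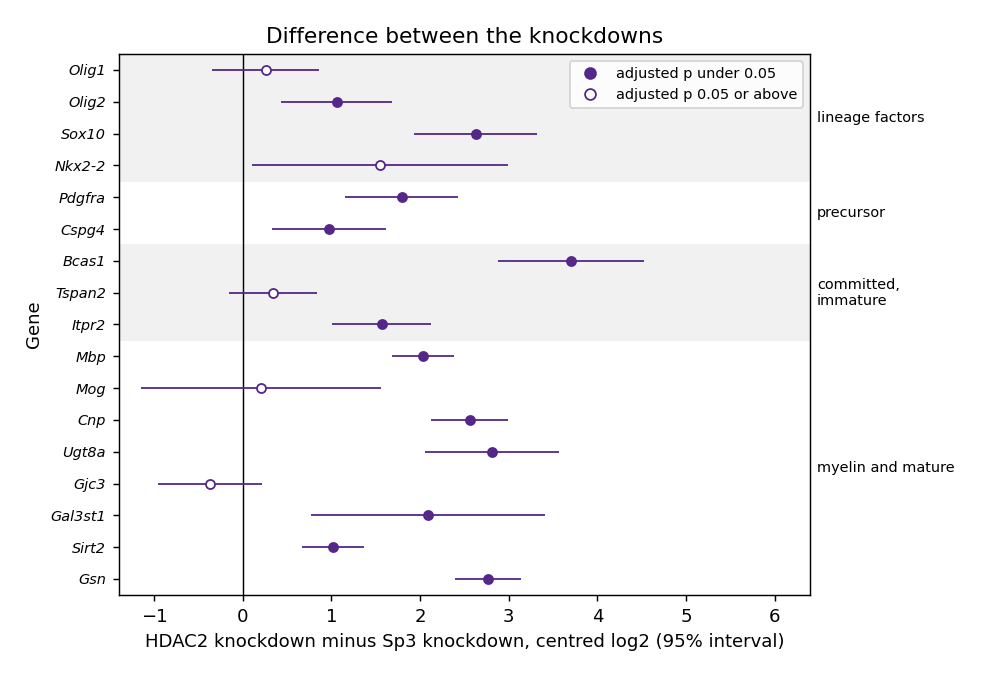
Centred log2 fold change in HDAC2 knockdown minus that in Sp3 knockdown for the 17 genes tested in both comparisons, with 95% intervals, filled where the adjusted p is under 0.05. The 12 filled points all lie right of 0, from 0.97 for Cspg4 to 3.70 for Bcas1, and the 5 open points have small values or wide intervals.

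Members without a test in 1 or both comparisons could be set between the knockdowns where both folds had a standard error. This addition was made after the data were seen and covers 17098 genes. The share called over those genes is not given here, so the calls are no support for a count. Gpr17 differed by 6.50 ± 0.57 (adjusted p of 1.60e-27) and Cldn11 by 4.62 ± 0.77 (adjusted p of 1.58e-07). Gm98 differed by 4.03 ± 0.70 (adjusted p of 6.58e-07), Mal by 5.71 ± 1.97 (adjusted p of 0.0375) and Bmp4 by 3.04 ± 0.91 (adjusted p of 0.012). Enpp6, Mag and Lims2 had differences of 6.41 ± 2.31, 5.75 ± 2.63 and 6.89 ± 3.14, and none passed (adjusted p of 0.0507, 0.168 and 0.166). In those 3 genes the Sp3 knockdown level was under 0.05 FPKM, where the error was largest. Nkx6-2, Trf, Mobp and Ermn, which like Bmp4 were tested in neither comparison, did not pass. Their differences were 0.67 ± 0.90, 0.70 ± 0.79, -0.32 ± 1.33 and -0.53 ± 0.71 (adjusted p of 0.821, 0.769, 0.962 and 0.814).

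Further genes of the lineage were read from lists that do not hold the members. For these and all later lists, the shares over all tested genes are the background. In HDAC2 knockdown 24.6% were higher and 3.60% lower by the authors' deposited table, and 10.2% and 7.59% after centring. In Sp3 knockdown 13.2% were higher and 26.1% lower by the authors' deposited table, and 20.2% and 17.6% after centring. Of 12 tested genes enriched in precursors, 9 were higher and 0 lower in HDAC2 knockdown by the authors' deposited table, 6 and 0 after centring, with a centred median of 0.77. Matn4, a matrix protein, was at 26.2 FPKM in HDAC2 knockdown and 5.73 FPKM in control (centred 1.88 ± 0.15). C1ql1, a secreted C1q-like protein, was at 17.9 FPKM in HDAC2 knockdown and 3.07 FPKM in control (2.23 ± 0.32), and Lhfpl3 was at 48.2 FPKM in HDAC2 knockdown and 18.8 FPKM in control (1.04 ± 0.20). In Sp3 knockdown 1 of these 12 was higher and 7 lower by the authors' deposited table, 1 and 6 after centring, with a centred median of -0.46. Sox6, which restrains differentiation, was at 5.21 FPKM in Sp3 knockdown and 9.86 FPKM in control (-0.79 ± 0.081), and Rlbp1 was at 9.15 FPKM in Sp3 knockdown and 21.4 FPKM in control (-1.09 ± 0.12). Epn2, an endocytic adaptor tested in Sp3 knockdown alone, was at 19.0 FPKM in Sp3 knockdown and 29.8 FPKM in control (-0.52 ± 0.06).

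Of 11 other genes of differentiation tested in both comparisons, 5 were higher and 1 lower in HDAC2 knockdown by the authors' deposited table, 3 and 2 after centring (centred median 0.19). Zeb2, a repressor that promotes myelination, rose by 1.43 ± 0.29, and Sox8, a relative of Sox10, rose by 1.02 ± 0.23. In Sp3 knockdown 2 of 11 were higher and 5 lower by the authors' deposited table, 2 and 4 after centring (centred median -0.17). Sox8 fell by 0.89 ± 0.14, Sema5a, an axon guidance protein, by 0.79 ± 0.11, and Zfp191, a zinc finger protein needed for myelination in mice, by 0.72 ± 0.11. Some of these genes moved the same way in both knockdowns by the authors' deposited tables. Zeb2 was also higher in Sp3 knockdown, at 10.1 FPKM beside 6.29 FPKM in control (q = 2.01e-10). Sema5a was also lower in HDAC2 knockdown, at 3.54 FPKM beside 6.30 FPKM in control (q = 0.00214).

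Of 22 other genes of mature oligodendrocytes tested in both comparisons, 12 were higher and 0 lower in HDAC2 knockdown by the authors' deposited table, 6 and 1 after centring (centred median 0.32). Car2, a carbonic anhydrase, was at 63.4 FPKM in HDAC2 knockdown, 12.7 FPKM in Sp3 knockdown and 9.18 FPKM in control. It was called higher in both knockdowns by the authors' deposited tables (q = 0.00873 in Sp3 knockdown). Plxnb3, a semaphorin receptor outside these 22, was at 3.37 FPKM in HDAC2 knockdown and 0.238 FPKM in control. In Sp3 knockdown 2 of 22 were higher and 6 lower by the authors' deposited table, 3 and 6 after centring (centred median -0.12). Tppp, a tubulin-binding protein, rose by 0.80 ± 0.12, while Gpr37, a receptor of maturing cells, fell by 0.41 ± 0.11 and Prr18 by 0.84 ± 0.21. In HDAC2 knockdown Tppp was also called higher by the authors' deposited table, at 63.6 FPKM beside 26.0 FPKM in control (q = 0.00415). Opalin, a marker of myelinating cells, was listed at 0 in all groups.

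Signals that act on the lineage were split by role. Of 7 Id, Hes and Hey genes, which encode inhibitors of differentiation, 6 were higher and 0 lower in HDAC2 knockdown by the authors' deposited table, 5 and 0 after centring (centred median 0.79). Id4 was at 32.6 FPKM in HDAC2 knockdown, 5.91 FPKM in Sp3 knockdown and 11.6 FPKM in control. Id1 rose by 2.01 ± 0.39 and Id3 by 1.13 ± 0.27 in HDAC2 knockdown. In Sp3 knockdown 0 were higher and 4 lower by the authors' deposited table, 0 and 3 after centring (centred median -0.42), where Id4 fell by 0.84 ± 0.17, Hes5 by 0.94 ± 0.23 and Id3 by 0.96 ± 0.27. All 7 were higher in HDAC2 knockdown than in Sp3 knockdown in the direct difference.

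Among 11 ligands tested in both comparisons, 4 were higher and 0 lower in HDAC2 knockdown by the authors' deposited table. After centring 1 was higher, near the share of 10.2% over all genes. That 1 was Jag1, a Notch ligand, at 15.5 FPKM in HDAC2 knockdown and 3.58 FPKM in control (1.80 ± 0.25). The calls of Dll1 and Bmp6 were lost on centring (0.57 ± 0.24 and 0.73 ± 0.31, adjusted p of 0.0838 and 0.0837). In Sp3 knockdown 3 of the 11 ligands were higher and 2 lower by the authors' deposited table, 5 and 2 after centring. Nrg1, a neuregulin that axons present to glia, rose by 1.47 ± 0.20 and Igf1, a growth factor tested in Sp3 knockdown alone, by 1.42 ± 0.27, and Bmp7 fell by 0.76 ± 0.17.

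Among 21 tested receptors, 12 were higher and 1 lower in HDAC2 knockdown by the authors' deposited table. After centring 2 were higher and 2 lower, near the shares of 10.2% and 7.59% over all genes. Fgfr1, a receptor for fibroblast growth factors, was the 1 lower by the authors' deposited table, at 23.8 FPKM in HDAC2 knockdown and 38.1 FPKM in control (-0.997 ± 0.066). Smo, the transducer of hedgehog signals, rose by 1.36 ± 0.24 and Bmpr1b by 0.97 ± 0.24. In Sp3 knockdown 3 of these 21 were higher and 8 lower by the authors' deposited table, 4 and 7 after centring, among them Fgfr2, which fell by 0.72 ± 0.095, and Fgfr1, which fell by 0.29 ± 0.051. Fgfr3, tested in Sp3 knockdown alone, fell by 0.27 ± 0.056.

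Markers of other cells moved in the same libraries. Among astrocyte markers, 14 had a test in HDAC2 knockdown, and 9 were higher and 0 lower there by the authors' deposited table, 8 and 0 after centring (centred median 1.28). In Sp3 knockdown 1 of these 14 was higher and 7 lower by the authors' deposited table, 4 and 7 after centring. In the direct difference 9 of the 14 were higher and 0 lower in HDAC2 knockdown than in Sp3 knockdown, with a median difference of 1.39, beside 1.57 for the 17 members. In the same difference, the other precursor genes had 7 of 12 higher and 0 lower (median 1.04). The other differentiation genes had 4 of 11 higher and 1 lower (median 0.37). The other mature oligodendrocyte genes had 9 of 22 higher and 1 lower (median 0.53). Ligands had 2 of 11 higher and 3 lower (median 0.54), and receptors 7 of 21 higher and 2 lower (median 0.31). Neuron markers had 1 of 16 higher and 5 lower (median -0.88). The 17 astrocyte markers summed to 3928 FPKM in HDAC2 knockdown, 1136 FPKM in Sp3 knockdown and 1602 FPKM in control. Fabp7 held a large part of these sums, at 1426 FPKM in HDAC2 knockdown, 350.8 FPKM in Sp3 knockdown and 703.6 FPKM in control. It was not called in HDAC2 knockdown by the authors' deposited table (q = 0.269). Gfap, the astrocyte filament protein, was at 166.7 FPKM in HDAC2 knockdown, 9.13 FPKM in Sp3 knockdown and 16.6 FPKM in control. Among the 4 markers higher in Sp3 knockdown after centring, beside 7 lower, were Aqp4 (0.39 ± 0.11), Aldh1l1 (0.31 ± 0.10) and Acsbg1 (0.41 ± 0.10). Of 16 neuron markers 0 were higher and 0 lower in HDAC2 knockdown by the authors' deposited table, 0 and 2 after centring, and in Sp3 knockdown 8 were higher and 3 lower, 8 and 1 after centring. Their sum was 1618 FPKM in HDAC2 knockdown, 1992 FPKM in Sp3 knockdown and 1651 FPKM in control.

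Of 13 markers of dividing cells, 1 was higher and 0 lower in HDAC2 knockdown by the authors' deposited table, 0 and 1 after centring, and 0 were higher and 12 lower in Sp3 knockdown with and without centring. Their sum was 221.6 FPKM in HDAC2 knockdown, 112.9 FPKM in Sp3 knockdown and 193.0 FPKM in control. Cenpf, a kinetochore protein, fell by 1.52 ± 0.13 in Sp3 knockdown, where Pdgfra and Cspg4 were also lower. The part that astrocyte, neuron and dividing cell markers have in the values of the lineage genes was not tested.

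Microglia markers were near absent. The 14 microglia markers summed to 6.23 FPKM in HDAC2 knockdown, 4.87 FPKM in Sp3 knockdown and 6.82 FPKM in control, with Tmem119, C1qc and Tyrobp listed at 0 in all groups and 0 of 2 tested genes called in either comparison by the authors' deposited tables. Of 3 Schwann cell markers tested in both comparisons 2 were higher in HDAC2 knockdown by the authors' deposited table, led by Pmp22, a membrane protein also made outside that lineage, at 73.1 FPKM in HDAC2 knockdown and 14.3 FPKM in control. The 9 Schwann cell markers summed to 78.7 FPKM in HDAC2 knockdown, 13.8 FPKM in Sp3 knockdown and 16.8 FPKM in control. In Sp3 knockdown 1 of 3 was higher and 1 lower by the authors' deposited table, 1 and 0 after centring. Of 5 tested vascular and meningeal markers 2 were higher and 0 lower in HDAC2 knockdown by the authors' deposited table, 1 and 0 after centring. In Sp3 knockdown 1 was higher and 2 lower, with and without centring. The vascular list, which holds Cspg4 too, summed to 66.6 FPKM in HDAC2 knockdown, 62.5 FPKM in Sp3 knockdown and 44.5 FPKM in control. Most of each sum was Dcn and Cspg4. Dcn was at 38.4 FPKM in HDAC2 knockdown, 49.9 FPKM in Sp3 knockdown and 26.6 FPKM in control. Its call in HDAC2 knockdown was lost on centring (0.21 ± 0.15, adjusted p of 0.378).

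**Figure D4:**
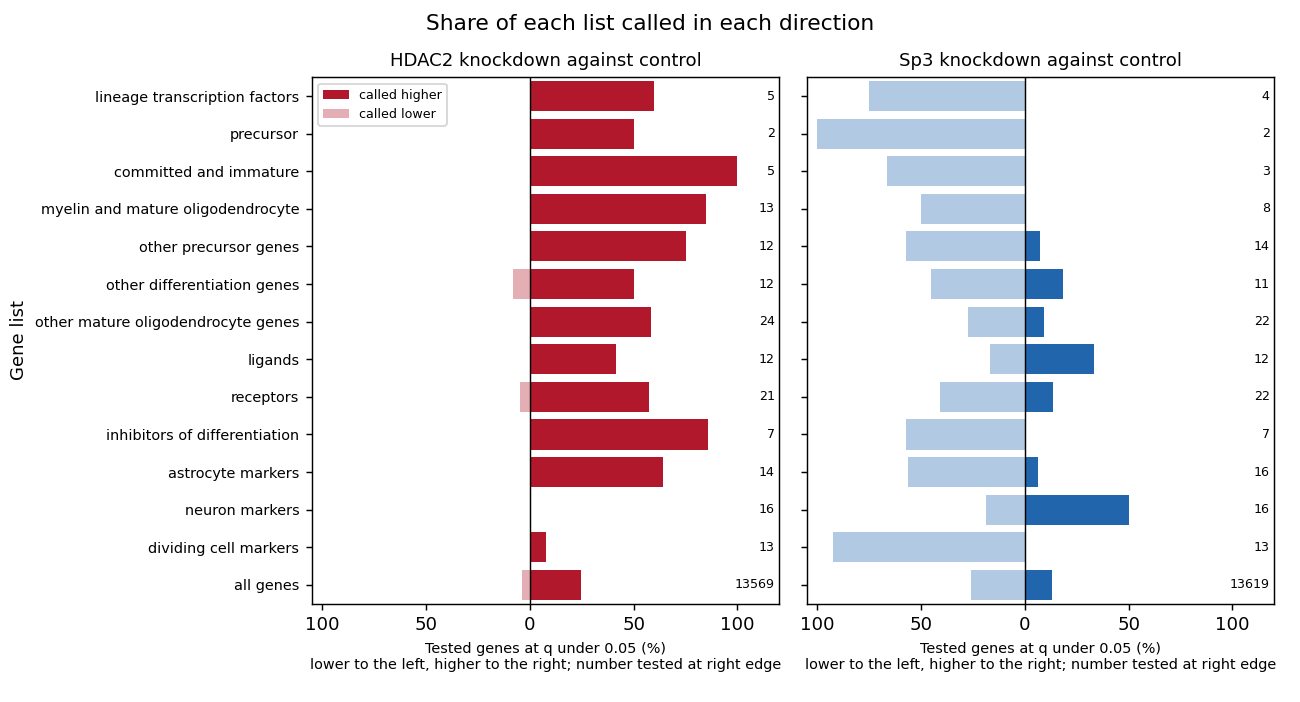
Percent of tested genes at q under 0.05 by the authors' deposited tables, higher to the right and lower to the left, for HDAC2 knockdown and Sp3 knockdown by gene list, with the number tested at the right edge. The HDAC2 bars of the factors, immature and myelin genes include the 8 members tested there alone. Among myelin genes tested in both comparisons 6 of 8 were higher in HDAC2 knockdown, beside 23.8% of genes tested in both.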

How the data were processed

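RNA sequencing of 6 libraries, 2 per group, was reduced by the authors to a table for each knockdown against control. Per the labels' protocols, total RNA was taken with a column kit and libraries were made with an Illumina TruSeq kit. Per the submitters' processing notes, TopHat, Bowtie and Cuffdiff were used on mouse build mm9. Versions, annotation and strand setting were not given in the sources used here. Per the file headers, the authors give for each gene a locus, a status, 1 FPKM per group, the log2 of the fold, the statistic of the test (a score with no fixed range), a p-value and a q-value. FPKM holds no counts, so the depth of a library is unknown. The most common ratio of values under 0.3 FPKM, which would be a step of single fragments, was 0.939 for HDAC2 knockdown over control (19 genes, against 7 at the next) and 1.62 for Sp3 knockdown over control (48 genes, against 11).

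The members, their stages and all lists were chosen with earlier results of these data known. A gene was called where its deposited status was OK and its deposited q was under 0.05. The sign of the deposited statistic runs against that of the fold and was reversed. Standard errors are the log2 fold change over the reversed statistic, whose normal p lay within 2.72e-06 of the deposited p-value. Their median was 0.26 over tested genes in HDAC2 knockdown and 0.14 in Sp3 knockdown. Centred values subtract the median log2 fold change of tested genes that reached 1 FPKM in either group, with a normal p and Benjamini-Hochberg adjustment over all tested genes with a finite fold. Without counts, a scaling shift and a true shift of most genes cannot be told apart. All members are named, and the rule for each other list takes the 3 called genes with the smallest deposited p, of which the text gives a part, and some are not reported here. Other genes were named after their values were seen, among them Opalin. Steps were tested on simulated data. Motifs were searched on both strands, in python 3.11.15 with pandas 2.3.3 and scipy 1.17.1.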

Additional observations from a re-analysis of the deposited data

How the results depend on the processing

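No paired analysis was possible because the tables hold 1 value per group, and leaving out a library could not be run for the same reason. With the statistic read on a t distribution with 2 degrees of freedom, the members called were 0 higher in HDAC2 knockdown, 0 lower in Sp3 knockdown and 0 higher in HDAC2 than in Sp3 knockdown. Restricting the HDAC2 count to members tested in both comparisons gave 12 higher in place of 20. In Sp3 knockdown 1 member was higher after centring and 1 after upper-quartile scaling, in place of 0, and 6 were lower with a minimum fold of 2, in place of 11. The median log2 fold change of tested members in HDAC2 knockdown was 1.75, which became 1.43 on centring and 1.35 in log2(FPKM + 1) over all members. These medians include the members tested through their level in HDAC2 knockdown. For the 17 members tested in both comparisons the median log2 fold change was 1.56, and 1.24 on centring. In Sp3 knockdown it was -0.74, and over all members -0.39 in log2(FPKM + 0.1) and -0.16 in log2(FPKM + 1). Among tested members and the other genes taken by the naming rule, 4 changed sign in HDAC2 knockdown under both scalings: Gjc3 (-0.15 centred, -0.15 by upper quartile), Nefm (-0.11 and -0.11), Pdgfrb (-0.040 and -0.041) and Top2a (-0.22 and -0.22). Counts of members called stayed within 1.5 times under q thresholds of 0.01 and 0.1, a Benjamini-Hochberg adjustment within each table, and a filter of 1 FPKM. Without counts, depth sets no stated limit here, and genes under 1 FPKM in control carry the largest errors.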
